A study of Mus musculus with 4 samples.

Results

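The genes described here make sterols and fatty acids, control that synthesis, or carry sterols out of the cell. They are the rows of the deposited expression table whose gene name is 1 of 36 fixed symbols, and all 36 were found among the 54532 genes of the table. By role they fall into 18 enzymes of sterol synthesis, 6 genes of the SREBP control system and sterol carriage, 4 genes of sterol export, and 8 enzymes of fatty acid synthesis. The libraries are total RNA of wild-type mouse spleen cells: naive CD4+ T cells, held for 3 days in conditions that favour T follicular helper (Tfh) cells, which help B cells make antibody. The 2 control libraries had no treatment. The 2 DMF libraries came from cultures with dimethyl fumarate, a fumaric acid ester that reacts with protein thiols, whose dose is not given in the sources used here. In its title the series places DMF, Tfh differentiation and Nrf2 in chronic graft-versus-host disease, and the comparison asks how the treated and untreated cultures differ. Nothing in the labels says that replicates came from separate mice or cultures, so the p-values speak only of the spread among these 4 libraries, and that spread may be technical.

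Animal cells build cholesterol from acetyl-CoA through mevalonate, isoprenoids, squalene and lanosterol, and build palmitate from acetyl-CoA and malonyl-CoA, which is then elongated and desaturated. SREBP transcription factors switch both programs on. Scap carries them out of the endoplasmic reticulum when sterols are scarce, and Insig proteins hold Scap back when sterols are plentiful. Oxysterols activate LXR nuclear receptors, which drive sterol export through Abca1 and Abcg1. T cells that start to divide are known to switch on SREBP targets to make membrane, and to lower LXR activity.

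Of the 36 genes, 35 had a mean of at least 1 FPKM (a level corrected for gene length and for library size) and entered the test. No difference passed limma's moderated test at an adjusted p of 0.05: 0 of the 35 were called, against 0.0% of the 12166 genes tested. The voom fit on recovered reads also called 0, with 2 members at an unadjusted p under 0.05. At an unadjusted p under 0.05 there were 3, Abcg1, Elovl6 and Mvd, all lower in DMF, against 9.45% of all tested genes. Both DMF libraries lay above both controls in 13 of the 35 genes, where 26.4% of all tested genes did. They lay below both in 14 of the 35, where 26.8% of all tested genes did. The median log2 difference, DMF minus control on log2(FPKM + 1), was -0.14 over the 35 genes (0.13 under quantile normalization and 0.024 by voom) and -0.013 over all tested genes. Members thus lay on both sides of 0 in similar numbers. By size, the lower members were led by Abcg1 at -1.17, Mvd at -0.80 and Elovl6 at -0.78, and the higher ones by Idi1 at 0.88, Acaca at 0.61 and Fasn at 0.58.

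The libraries held 15900118 to 17516953 reads, worked out from FPKM and gene length, and a tested member had 44 to 15601 reads in a library. Control replicate 2 stood apart: over all tested genes the SD of the log2 difference was 0.745 between the controls and 0.316 between the DMF libraries. In 32 of the 35 members the gap between the controls exceeded that between the DMF libraries, with a median of 0.37 against 0.053 on the log2 scale. General T cell markers were present, though none is particular to Tfh cells. Cd3d, Cd3e, Cd3g, Cd4, Cd5 and Cd28 summed to 1093 and 1411 FPKM in the controls and 1061 and 1069 in the DMF libraries. Most of this was Cd5, at 636 and 757 FPKM in the controls and 672 and 685 in DMF. Of the 6 genes, 4 lay below both controls, 0 above and 2 overlapped. Of all tested genes, 26.8% lay below both and 26.4% above. Cd3d was at -0.93 and Cd3g at -0.85, or -0.31 and -0.43 against control replicate 1 alone. Cd4 was at -0.19, Cd3e at -0.17, Cd5 at -0.032 and Cd28 at 0.28. The median of the 6 was -0.18, and it was 0.14 under quantile normalization and -0.012 by voom. The 8 B cell markers summed to 11.2 and 14.6 FPKM in the controls and to 26.5 and 25.6 in the DMF libraries. The 6 CD8 T and NK cell markers summed to 13.2 and 21.7 FPKM in the controls and to 3.04 and 2.96 in the DMF libraries, with Ncr1 at 0 reads in all 4. The part of these cells in the differences below was not tested, and fewer cells of a type and less RNA per cell cannot be told apart in bulk RNA.

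**Figure D1:**
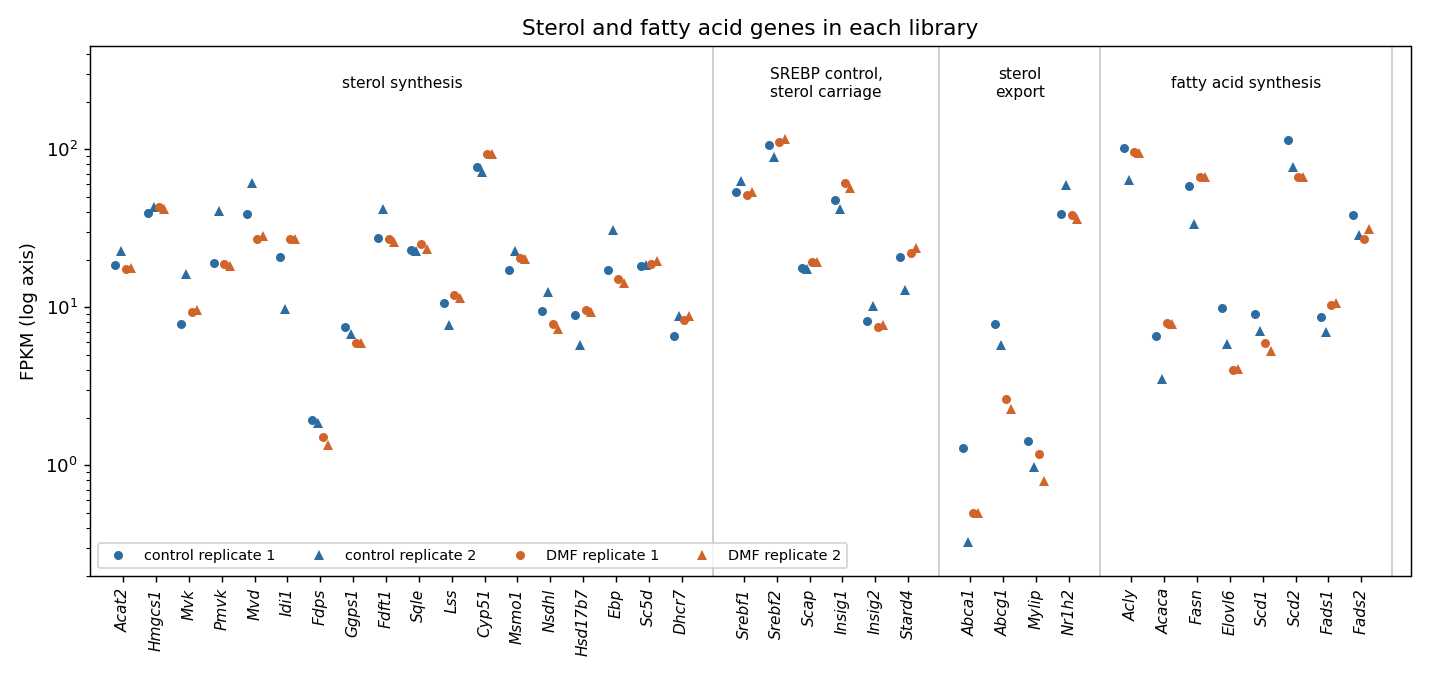
FPKM (log axis) of the 36 genes in each of the 4 libraries, by role, with controls in blue and DMF in orange and each point 1 library. The DMF points nearly coincide for most genes while control replicate 2 (blue triangle) often lies away from control replicate 1, as for Idi1 at 9.71 against 20.7 FPKM, and Abcg1 and Elovl6 lie lower in both DMF libraries.

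Promoter sequence was read to see what the genes share besides their roles. RefSeq starts (GRCm38.p6) were at hand for 28 of the 36 genes, and Fdps, Fdft1, Sqle, Stard4, Abcg1, Scd1, Scd2 and Fads1 have no entry. In the 250 bases before the start, on either strand, the letters CCAAT (the core of the box that the factor NF-Y binds beside SREBP) were present for 14 of the 15 sterol synthesis genes with an entry. They were present for 4 of 5 SREBP control genes, 1 of 3 sterol export genes and 1 of 5 fatty acid synthesis genes, against 37.5% of 27025 genes in the table. Genes with several listed starts were counted once, with a match at any start. The letters TCACNCCAC, a form of the sterol regulatory element, were present for 1 of the 28 genes, Hmgcs1, and for 1.22% of all genes. The 2 motifs do not share a match in the sequences shown. A match is only a match of letters, and its absence says nothing of SREBP binding.

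The following 150 bases before the start are shown for 4 enzymes of 1 pathway that hold the same box yet differ in how they lay in the DMF libraries: Hmgcs1 level, Mvd lower, Idi1 and Cyp51 higher. They are chr13:119690201-119690350 (plus strand) for Hmgcs1, chr8:122443423-122443572 (minus strand) for Mvd, chr13:8885456-8885605 (plus strand) for Idi1 and chr5:4104698-4104847 (minus strand) for Cyp51, each printed 5′ to 3′ on the gene's strand. Capitals mark CCAAT or its reverse complement ATTGG, and in Hmgcs1 also the element, which begins 137 bases before the start.
Hmgcs1: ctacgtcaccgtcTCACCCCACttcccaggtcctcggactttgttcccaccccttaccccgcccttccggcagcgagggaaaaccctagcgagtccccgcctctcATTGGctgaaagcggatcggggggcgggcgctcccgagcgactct
Mvd: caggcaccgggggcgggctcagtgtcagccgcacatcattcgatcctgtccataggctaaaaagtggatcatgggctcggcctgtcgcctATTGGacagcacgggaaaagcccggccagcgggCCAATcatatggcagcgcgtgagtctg
Idi1: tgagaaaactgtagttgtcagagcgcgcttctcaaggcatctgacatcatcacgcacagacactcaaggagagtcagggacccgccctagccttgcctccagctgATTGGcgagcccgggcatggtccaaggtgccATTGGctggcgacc
Cyp51: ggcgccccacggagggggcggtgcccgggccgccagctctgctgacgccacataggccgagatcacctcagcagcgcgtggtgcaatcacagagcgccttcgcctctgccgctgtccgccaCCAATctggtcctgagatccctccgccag
The box nearest to the RefSeq start begins 45 bases before it in Hmgcs1, 27 in Mvd, 14 in Idi1 and 29 in Cyp51. As deposited, Idi1 already begins at 8885501 and Cyp51 (minus strand) at 4104746. The marked boxes of these 2 genes therefore lie inside the deposited gene. The 4 were picked to show both directions, so nothing about the box follows from their differences.

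In sterol synthesis, the DMF libraries lay above both controls in 6 enzymes and below both in 8 of 18, and 4 overlapped, with 0 called. For this and each later list, the shares to compare are 26.4% of all tested genes above both controls and 26.8% below. The median log2 difference of the 18 was -0.085, and it was 0.0075 under quantile normalization and 0.077 by voom. It was -0.16 against control replicate 2 alone and 0.079 against control replicate 1 alone, so its sign depends on the control and the scaling. Their summed level was 369 and 445 FPKM in the controls and 387 and 384 FPKM in the DMF libraries, which lie between the controls.

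Of the steps before mevalonate, 2 enzymes are members. Acat2, the thiolase that joins acetyl-CoA units, was at 18.4 and 22.7 FPKM in the controls and 17.5 and 17.6 in the DMF libraries. Acat2 lay below both controls, at -0.21, and at -0.067 against control replicate 1 alone and -0.35 against control replicate 2 alone. Hmgcs1, which makes HMG-CoA, was at 39.7 and 42.8 FPKM in the controls and 43.2 and 41.9 in DMF, a log2 difference of 0.045 ± 0.18. The ± value here and below is limma's moderated SE (n = 2 per group). It draws on the variance trend over all tested genes as well as on the gene's own libraries. The groups of Hmgcs1 overlapped.

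The mevalonate kinases lay far from control replicate 2, and the decarboxylase lay below both controls. Mvk, mevalonate kinase, was at 7.82 and 16.2 FPKM in the controls and 9.31 and 9.61 in DMF, so the groups overlapped. Pmvk, phosphomevalonate kinase, was at 18.9 and 40.5 FPKM in the controls and 18.6 and 18.3 in DMF. Only control replicate 2 of Pmvk stood far from the DMF libraries, with log2 differences of -0.036 against control replicate 1 and -1.09 against control replicate 2. Mvd (GRCm38 chromosome 8, 122433601 to 122443422, minus strand), the decarboxylase that yields isopentenyl diphosphate, was at 38.8 and 61.4 FPKM in the controls and 27.0 and 28.3 in DMF. The DMF libraries of Mvd lay below both controls, with a difference of -0.80 ± 0.28 (limma adjusted p = 0.518). Against control replicate 1 alone it was -0.47, and against control replicate 2 alone -1.12.

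Isoprenoid steps went in both directions. Idi1 (GRCm38 chromosome 13, 8885501 to 8892451, plus strand), the isomerase that makes dimethylallyl diphosphate, was at 20.7 and 9.71 FPKM in the controls and 27.0 and 27.1 in DMF. Both DMF libraries lay above both controls, and the difference was 0.88 ± 0.38 (limma adjusted p = 0.549). It was 0.37 against control replicate 1 and 1.39 against control replicate 2, so its size rests on the low value of control replicate 2. Fdps, farnesyl diphosphate synthase, was at 1.94 and 1.84 FPKM in the controls and 1.51 and 1.35 in DMF, from 106 to 145 reads. Ggps1, which leads to geranylgeranyl diphosphate and protein prenylation, was at 7.44 and 6.80 FPKM in the controls and 5.94 and 5.96 in DMF. Fdps and Ggps1 were lower in both DMF libraries by a similar amount against either control, -0.28 and -0.23 for Fdps and -0.28 and -0.17 for Ggps1 against replicates 1 and 2.

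From squalene to lanosterol, 1 enzyme lay below both controls and 2 above. Fdft1, squalene synthase, was at 27.4 and 41.7 FPKM in the controls and 26.9 and 25.9 in DMF, again close to control replicate 1. Sqle, squalene epoxidase, was at 22.9 and 22.6 FPKM in the controls and 25.1 and 23.4 in DMF, a difference of 0.089 ± 0.17. Lss, lanosterol synthase, was at 10.6 and 7.71 FPKM in the controls and 12.0 and 11.4 in DMF. Lss differed by 0.34, and with the gene length trend removed Sqle and Lss differed by 0.040 and 0.051.

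Among the enzymes from lanosterol to cholesterol, Cyp51 lay above both controls. Cyp51 (GRCm38 chromosome 5, 4081145 to 4104746, minus strand), the lanosterol demethylase and the most abundant of the 18 per length, was at 77.0 and 72.1 FPKM in the controls and 93.3 and 93.4 in DMF. The difference was 0.32 ± 0.20 (limma adjusted p = 0.561), and 0.27 and 0.37 against control replicates 1 and 2 alone. Cyp51 stayed higher in all 15 alternatives, which reuse the same 4 libraries, from 0.27 to 0.67. It overlaps Akap9 on the other strand, as do Ggps1 with Arid4b, Fdft1 with Ctsb and Srebf1 with Rai1. It is not stated whether the counting used strand, so reads of these genes may be shared. Fdps overlaps the small nuclear RNA gene Gm22935 on the same strand, so reads may be shared there even if strand was used.

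The other late enzymes divided. Nsdhl, a sterol dehydrogenase, was at 9.51 and 12.4 FPKM in the controls and 7.87 and 7.32 in DMF, and Ebp, the sterol isomerase, at 17.1 and 30.7 against 15.1 and 14.3 FPKM. Both lay below both controls, by -0.47 ± 0.20 and -0.61 ± 0.32. Hsd17b7, a sterol ketoreductase, was at 8.92 and 5.74 FPKM in the controls and 9.62 and 9.33 in DMF, above both. Msmo1, the methyl oxidase, Sc5d, the desaturase, and Dhcr7, which makes cholesterol, differed by 0.038, 0.071 and 0.14, with Msmo1 and Dhcr7 overlapping and Sc5d just above both controls. Dhcr7 was at 6.56 and 8.85 FPKM in the controls and 8.29 and 8.76 in DMF.

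**Figure D2:**
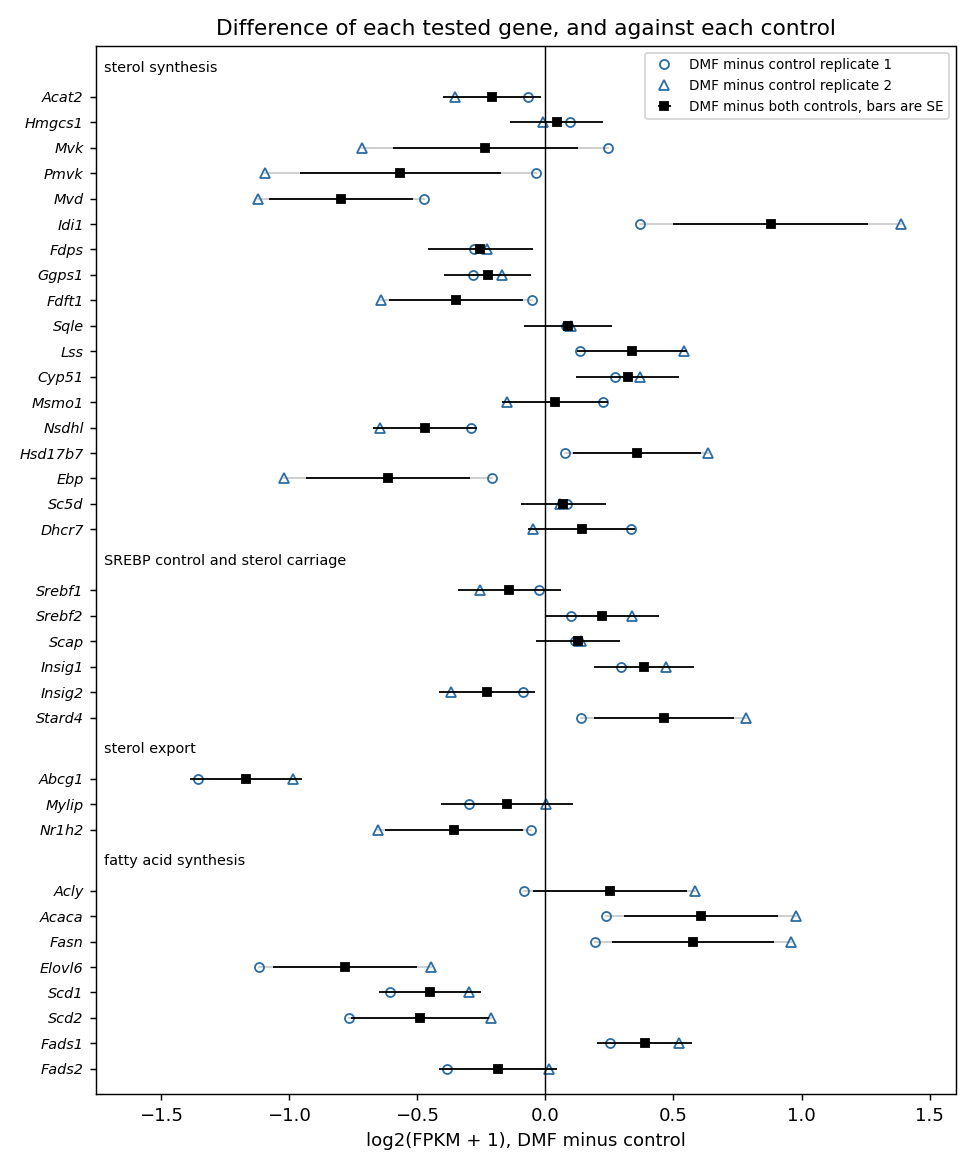
Difference in log2(FPKM + 1), DMF minus control, of the 35 tested genes (black squares, bars are limma's moderated SE). Open circles give the same difference against control replicate 1 alone and open triangles against control replicate 2 alone. For most genes both open symbols lie on the same side of 0, whereas Hmgcs1, Mvk, Msmo1, Dhcr7, Mylip, Acly and Fads2 have them on either side.

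Among the SREBP control genes, 4 of 6 lay above both controls and 1 below, with a median difference of 0.17 and 0 called. Insig1, the retention protein that is itself an SREBP target, was at 47.6 and 42.0 FPKM in the controls and 61.0 and 56.4 in DMF, a difference of 0.38 ± 0.20 (limma adjusted p = 0.561). Its paralog Insig2, which is regulated apart from SREBP, was at 8.15 and 10.1 FPKM in the controls and 7.52 and 7.73 in DMF, a difference of -0.23 ± 0.19. Insig1 thus lay above both controls and Insig2 below both, and the difference between them was not tested. Both directions held in all 15 alternatives, which reuse the same libraries.

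Of the SREBP genes themselves, Srebf2 lay above both controls and Srebf1 overlapped, and neither was called. Srebf2, which encodes the SREBP that favours sterol genes, was at 105 and 89.2 FPKM in the controls and 110 and 116 in DMF, a difference of 0.22 ± 0.22. The difference of Srebf2 was 0.10 and 0.34 against control replicates 1 and 2 alone. Its direction held in all 15 alternatives, which reuse the same libraries. Srebf1, whose products favour fatty acid genes, was at 53.3 and 62.6 FPKM in the controls and 51.1 and 53.5 in DMF, and its groups overlapped. The difference of Srebf1 was -0.14, and it was 0.14 under quantile normalization and 0.024 by voom. Scap was at 17.8 and 17.5 FPKM in the controls and 19.4 and 19.3 in DMF. The difference of Scap was 0.13, and it was -0.041 with the length trend removed. Transcript levels do not measure the cleavage that activates SREBP proteins. Stard4, a carrier of sterol between membranes and an SREBP2 target, was at 20.7 and 12.9 FPKM in the controls and 22.1 and 23.7 in DMF, with a difference of 0.14 against control replicate 1 and 0.78 against control replicate 2.

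Sterol export held the largest difference of the 35 genes. Abcg1 (chromosome 17, 31057698 to 31115777, plus strand, as deposited), a transporter that moves cholesterol to lipoproteins and an LXR target, was at 7.80 and 5.79 FPKM in the controls and 2.61 and 2.28 in DMF. These values rest on 562, 328, 194 and 173 reads, and both DMF libraries were far below both controls. The control mean was 2.78 times the DMF mean, and the difference was -1.17 ± 0.22 on the log2 scale (limma unadjusted p = 0.00441, adjusted p = 0.264). It was -1.36 against control replicate 1 alone and -0.98 against control replicate 2 alone. Over the 14 alternatives it could be tested in, the difference ran from -1.43 to -0.98 and the adjusted p from 0.00879 to 1.00, the highest without either DMF library.

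Of the 3 tested genes of this list, 2 lay below both controls and 0 above, and Abcg1 is the only transporter among them. Abca1, the transporter that loads cholesterol onto apolipoproteins and another LXR target, lay below the level filter at 1.28 and 0.326 FPKM in the controls, with 0.496 in both DMF libraries. Its reads were 236, 47, 94 and 96, so the DMF libraries lay between the controls. Mylip, an LXR-induced ligase that degrades lipoprotein receptors, was at 1.43 and 0.977 FPKM in the controls and 1.18 and 0.795 in DMF, with overlapping groups. Nr1h2, which encodes LXR beta, was at 38.7 and 59.0 FPKM in the controls and 38.1 and 36.3 in DMF, below both controls. The log2 difference of Nr1h2 was -0.35, which is also the median of the list. It was -0.057 against control replicate 1 alone and -0.65 against control replicate 2 alone. The 9 macrophage and dendritic cell markers, cells that use these transporters, summed to 9.06 and 12.8 FPKM in the controls and 8.81 and 7.22 in DMF. Of these, 3 passed the level filter: Cd14 and Lyz2 lay below both controls and Cd68 above. Csf1r had 2 to 8 reads in a library and Adgre1 4 to 14. The part of these cells in the Abcg1 difference was not tested.

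In fatty acid synthesis the members divided. The DMF libraries lay above both controls in Acaca, Fasn and Fads1 and below both in Elovl6, Scd1 and Scd2, with Acly and Fads2 overlapping and 0 of 8 called. The median of the 8 was 0.034, and it was -0.23 against control replicate 1 alone and 0.27 against control replicate 2 alone.

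Of the palmitate enzymes, Acly, which makes cytosolic acetyl-CoA from citrate, was at 101 and 63.4 FPKM in the controls and 96.5 and 94.6 in DMF, between the controls. Acaca, acetyl-CoA carboxylase, was at 6.55 and 3.52 FPKM in the controls and 7.92 and 7.87 in DMF. Fasn, fatty acid synthase, was at 58.1 and 33.8 FPKM in the controls and 66.3 and 66.8 in DMF. Acaca and Fasn were higher by 0.61 ± 0.30 and 0.58 ± 0.32 (limma adjusted p = 0.561 for both). Against control replicate 1 alone the differences were 0.24 and 0.19 (adjusted p = 0.165 and 0.077), and against control replicate 2 alone 0.98 and 0.96. With a length of 17074 and 10947 bases, Acaca and Fasn are among the longest members, and with the length trend removed their differences were 0.19 and 0.28.

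Elovl6 (GRCm38 chromosome 3, 129532355 to 129638495, plus strand), which elongates palmitate to stearate, was at 9.92 and 5.87 FPKM in the controls and 3.99 and 4.09 in DMF. The control mean was 1.95 times the DMF mean, and the difference was -0.78 ± 0.28 (limma adjusted p = 0.521). It was -1.12 against control replicate 1 and -0.45 against control replicate 2. Scd2, a stearoyl-CoA desaturase at a higher FPKM than its paralog Scd1, was at 114 and 77.6 FPKM in the controls and 67.1 and 66.6 in DMF. Its difference was -0.49 ± 0.27 (limma adjusted p = 0.561), and -0.76 and -0.21 against control replicates 1 and 2 alone. Its neighbour Scd1 was at 9.03 and 7.11 FPKM in the controls and 5.91 and 5.30 in DMF, a difference of -0.45 ± 0.20. The differences of Elovl6, Scd1 and Scd2 were larger against control replicate 1, and were negative in all 15 alternatives, which reuse the same libraries. Scd1 and Scd2 are close paralogs, and reads common to both could be split by the counting.

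The desaturases of polyunsaturated fatty acids differed in where they lay. Fads1, the delta-5 desaturase, was at 8.64 and 6.98 FPKM in the controls and 10.4 and 10.6 in DMF, above both controls by 0.39 ± 0.19. Fads2, the delta-6 desaturase, was at 38.0 and 28.6 FPKM in the controls and 26.9 and 31.1 in DMF, with overlapping groups. The difference of Fads2 was -0.18, and it was 0.16 with the length trend removed.

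How far these differences hold turns on the controls. Against control replicate 1 alone, 6 of the 35 genes were called, against 8.28% of all tested genes. They were Scd2, Elovl6, Abcg1 and Mvd, lower, and Cyp51 and Idi1, higher. Against control replicate 2 alone 24 were called, 11 higher and 13 lower, against 61.0% of all tested genes. In each of these fits the lone control is assumed to vary like the DMF libraries, though the controls lay further apart (SD 0.745 against 0.316). Without DMF replicate 1 or without DMF replicate 2, 0 members were called. Over all 15 alternatives, 25 of the 35 genes kept their direction, 12 higher and 13 lower. All alternatives reuse the same 4 libraries. The 2 other filters, no variance trend, quality weights and the replicate block leave each log2 difference as it was. A kept direction is therefore no separate evidence, and the share of all tested genes that kept theirs was not counted.

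**Figure D3:**
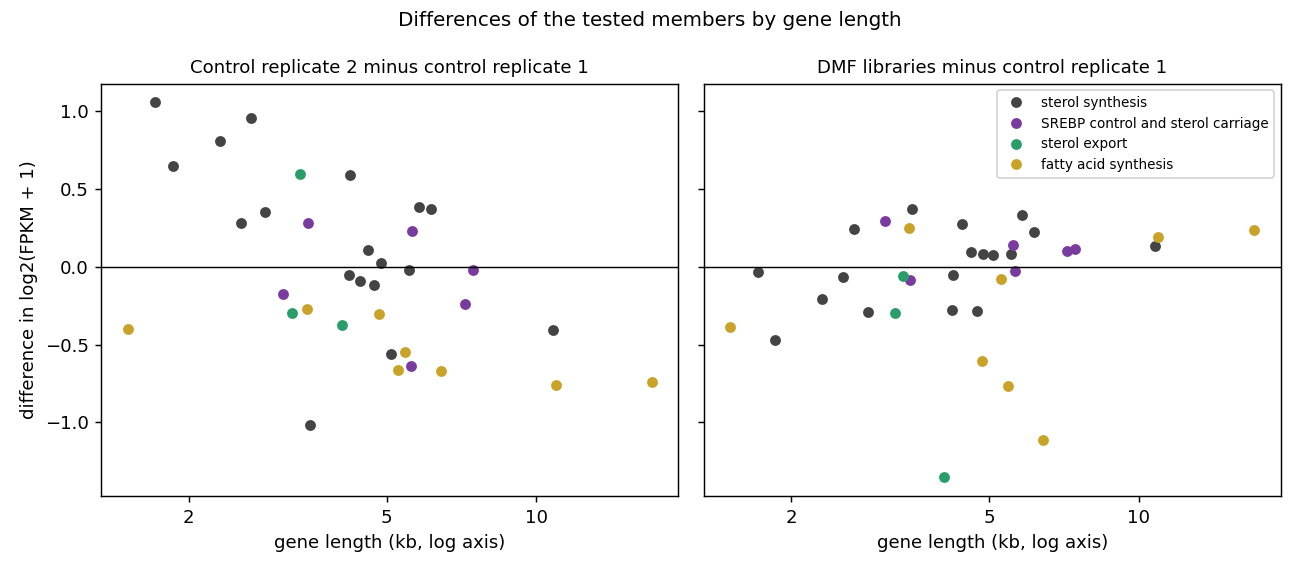
Difference in log2(FPKM + 1) against gene length (kb, log axis) for the 35 tested genes, as control replicate 2 minus control replicate 1 (left) and as the mean of the DMF libraries minus control replicate 1 (right), coloured by role. On the left the values fall with length, while on the right most genes lie near 0 and Abcg1 (-1.36), Elovl6 (-1.12), Scd2 (-0.76) and Scd1 (-0.60) lie lowest.

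Gene length moved with the gap between the controls. Over the 35 genes, Spearman's rho between length and control replicate 2 minus control replicate 1 was -0.48, given as a description since the genes share libraries. The rho between length and DMF minus control was 0.47 with both controls and 0.29 with control replicate 1 alone. The short genes Pmvk, Mvd, Ebp and Mvk lay higher in control replicate 2 and the long genes Acaca and Fasn lower, but the shortest member, Fads2 (1508 bases), differed by -0.40 and Idi1 (3505 bases) by -1.02. The part of length in each difference was not tested beyond the fit with the trend removed.

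The wider sterol pathway was also mixed. Of 19 further sterol genes 16 were tested, 7 above both controls and 3 below, with 0 called and a median of 0.14. Npc2, which takes cholesterol out of lysosomes, was at 116 and 227 FPKM in the controls and 58.4 and 57.6 in DMF, a difference of -1.47 ± 0.38 (limma adjusted p = 0.398). It was -0.98 against control replicate 1 alone. Gramd1a and Gramd1b, carriers of plasma membrane sterol, differed by -0.40 and 0.38, and by -0.22 and 0.093 against control replicate 1 alone. Lbr, a sterol reductase of the inner nuclear membrane, was at 27.1 and 15.0 FPKM in the controls and 28.2 and 30.3 in DMF. Osbp differed by 0.28, and Scarb1 by -0.13. Against control replicate 1 alone, Lbr differed by 0.11, Osbp by 0.064 and Scarb1 by -0.035.

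Of the 12 genes of the isoprenoid branch, all tested, 5 lay above both controls and 0 below, with 0 called and a median of 0.013. Dhdds, which makes dolichol precursors, was at 9.71 and 12.0 FPKM in the controls and 12.2 and 13.0 in DMF. Pdss1, of ubiquinone synthesis, was at 2.64 and 2.82 FPKM in the controls and 3.33 and 3.58 in DMF. Pggt1b, a subunit of a protein prenyltransferase, was at 10.9 and 4.09 FPKM in the controls and 11.8 and 11.2 in DMF, where only control replicate 2 stood apart.

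Of 19 further fatty acid genes 14 were tested, 4 above both controls and 8 below, with 0 called and a median of -0.26. Slc25a1, which exports the citrate that Acly uses, was at 37.2 and 65.8 FPKM in the controls and 34.4 and 33.5 in DMF. Fabp5, a fatty acid carrier, and Tecr, an enzyme of elongation, differed by -0.68 and -0.51, and by -0.23 and -0.058 against control replicate 1 alone. Acsl3, which activates fatty acids, was at 5.31 and 4.94 FPKM in the controls and 7.06 and 6.28 in DMF. Hsd17b12 and Acsl5 were higher by 0.21 and 0.17, and by 0.067 and 0.10 against control replicate 2 alone. Hsd17b12 only just lay above both controls, at 57.627 FPKM in DMF replicate 2 and 57.622 in control replicate 2.

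Fatty acid oxidation, the opposite process, had 10 of 18 tested genes below both controls, 1 above and 7 overlapping, with 0 called. Of all tested genes, 26.8% lay below both and 26.4% above. The median of the 18 was -0.29, and it was -0.11 against control replicate 1 alone and -0.54 against control replicate 2 alone. Acadl, the long-chain acyl-CoA dehydrogenase, was at 48.3 and 62.2 FPKM in the controls and 28.8 and 26.7 in DMF. The difference was -0.96 ± 0.22 (limma adjusted p = 0.340), and it was -0.78 against control replicate 1 alone. Acadm and Acads, its medium- and short-chain relatives, differed by -0.77 and -0.73, and by -0.52 and -0.33 against control replicate 1 alone.

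**Figure D4:**
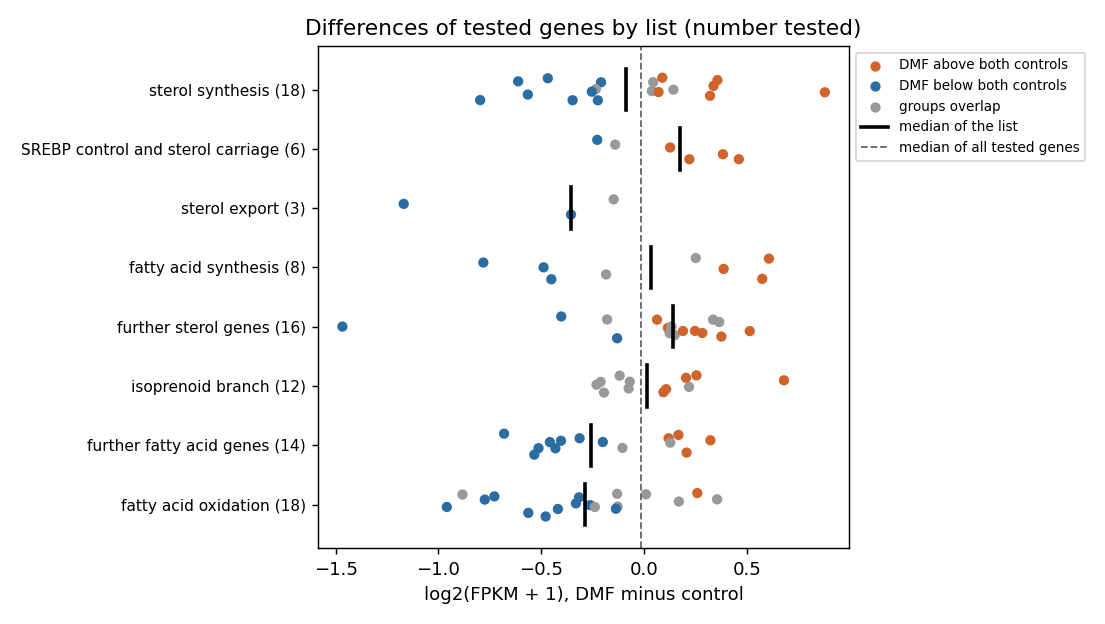
Difference in log2(FPKM + 1), DMF minus control, of each tested gene (points, spread vertically for view) in the 4 groups of members and 4 further lists, with the list median as a black bar and the median of all tested genes dashed. Sterol synthesis spreads to both sides of 0 (median -0.085, but 0.0075 under quantile normalization and 0.077 by voom). Of 18 fatty acid oxidation genes 10 lie below both controls and 1 above, where 26.8% and 26.4% of all tested genes did.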

How the data were processed

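The authors deposited FPKM values per gene in 1 table that also holds gene names, positions and lengths, as its header shows. Aligner and counter: not given in the sources used here. Build mm8 and the tool edgeR appear in the submitters' processing notes with no role. The deposited coordinates of 31 of the 36 members equal those of GENCODE M21 (GRCm38), and the other 5 differ at 1 or both ends on the same chromosome. FPKM times gene length gave whole multiples of 1 step for 100% of values in each library, within 0.01, and so reads per gene.

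limma 3.58.1 (eBayes with a trend) in R 4.3.3 was run on log2(FPKM + 1), two-sided, with no covariate, over 12166 genes, those whose mean FPKM was 1 or more. P-values were adjusted over all of them (Benjamini-Hochberg, threshold 0.05). A log2 difference on this scale understates the change of low genes. The code was tested on simulated data in which all 4 libraries varied alike. That test does not show how the fit behaves when the controls lie far apart. The 2 DMF libraries were kept as separate samples, since their reads differed beyond sampling noise (chi-square per degree of freedom 3.61, and 146.6 for the controls).

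The 36 members, their 4 groups, the 4 further lists and the markers were chosen with earlier results of these data known. All members are named, and of each further list up to 3 genes in each direction with the largest difference among those that do not overlap; 1 gene that this rule names is not reported here. The 15 alternatives were other pseudocounts (0.1, 0.5), no filter or a mean FPKM of at least 5, trimmed mean and quantile scaling, no variance trend, library quality weights, gene length trend removal (loess, span 0.3), voom on recovered reads, a replicate block, and each library left out.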

Additional observations from a re-analysis of the deposited data

How the results depend on the processing

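The count of called genes over all tested genes was 0 in the main analysis and in 10 alternatives, voom included, with 1150 at an unadjusted p under 0.05 (1187 by voom). It was 552 with the replicate block and ran from 6 to 7420 with each library left out. The count of called members was 1 with the replicate block, Abcg1 (adjusted p = 0.0175), and 0 to 24 with each library left out. The labels tie a replicate number to no animal or day, and the deviations of same-numbered libraries correlated at -0.023 over tested genes. With voom, where the median of all genes moved to 0.15, 8 members lay below both controls, against 14.

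The median of the sterol synthesis enzymes (-0.085) was 0.038 at a mean FPKM of at least 5, 0.0075 under quantile normalization, -0.0053 with the length trend removed, 0.077 by voom and -0.16 to 0.079 with each library left out. The median of the fatty acid synthesis enzymes (0.034) ran from -0.23 to 0.27 with each library left out, and was -0.0096 without DMF replicate 2. That of the sterol export genes (-0.35) was -0.22 with the length trend removed, -0.20 by voom and -0.65 to -0.30 with each library left out. That of the SREBP control genes (0.17) was 0.37 under quantile normalization, 0.012 with the length trend removed, 0.34 by voom and 0.11 to 0.24 with each library left out. The cause of these shifts was not tested.

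Single genes changed sign in 13 cases. With the length trend removed, Acat2 was at 0.015, Msmo1 at -0.055, Scap at -0.041 and Fads2 at 0.16. With each library left out, Hmgcs1 ran from -0.0083 to 0.098, Msmo1 from -0.15 to 0.23, Dhcr7 from -0.048 to 0.33, Mylip from -0.30 to 0.0019 and Fads2 from -0.38 to 0.017, each turning without control replicate 1. Mvk ran from -0.71 to 0.25 and Acly from -0.081 to 0.58, both turning without control replicate 2. Srebf1 was at 0.14 under quantile normalization and 0.024 by voom. In 31 further cases a gene kept its direction and passed the threshold, and in 478 it kept both. Abca1 entered the fit only with no filter on low values, where it counts in the export median of -0.29. Among the tested members Mylip and Fdps have few reads, 44 to 145 in a library.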
